A study of Mus musculus with 8 samples.

Results

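The SR proteins and the heterogeneous nuclear ribonucleoproteins (hnRNPs) are the main families of RNA-binding proteins that choose splice sites. Their genes were followed in the transcriptome of mouse bone marrow neutrophils. Every gene symbol of the count table that starts with Srsf or Hnrnp was taken, without pseudogenes, where at least 1 read was counted in at least 2 libraries. That left 30 genes, 10 of the Srsf family and 20 of the Hnrnp family, of the 12254 genes tested. One further symbol, Srsf12, was at 0 in all 8 libraries. The neutrophils came from 8-week-old WT (wild type) mice and Padi4-/- mice (Padi4 KO), both on the C57BL/6 background. The KO allele lacks exon 1 of Padi4, and the cells were isolated magnetically. Cells of each genotype were either left unstimulated (Nostim) or incubated with R848, a TLR7 agonist, at 1 µg/ml over 6 h. This gave 4 groups with 2 libraries in each. The titles of the unstimulated samples give 0 h, whereas the protocol and the study's methods describe 6 h of incubation for both arms, so a change given here as after R848 may also contain the effect of culture. Samples were run in duplicate and the labels do not say that the duplicates came from separate mice, so the p-values measure the spread between these libraries, which may be technical.

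SR proteins carry RNA recognition motifs and a tail rich in arginine and serine. They bind exonic enhancers, recruit the U1 and U2 small nuclear ribonucleoproteins to nearby splice sites, and are switched by the SRPK and CLK kinases and carried into the nucleus by transportin 3. Many hnRNPs bind intronic or exonic silencers and oppose exon inclusion, and several also act in mRNA export, stability and translation. Members of both families are known to limit their own levels through poison exons or retained introns that send part of their transcripts to decay. PAD4, the product of Padi4, converts arginine to citrulline, and it is known for its part in neutrophil extracellular traps.

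The deletion was visible in the counts. In WT, Padi4 was counted 590 and 527 times in the unstimulated libraries and 166 and 234 times in the R848 libraries. The corresponding Padi4 KO libraries held 40 and 54 reads of it, and 34 and 21. Padi4 was lower in Padi4 KO by a log2 fold change of -4.45 ± 0.13 (SE) without stimulation and -3.92 ± 0.17 after R848. The libraries were shallow, with 562446 to 1177970 counts on genes, so 3 counts correspond to 2.55 to 5.33 CPM (reads relative to the size of the library). The factors that equalize library composition (TMM factors) ran from 0.804 to 1.25 and differed by group. They were 1.23 and 1.25 in unstimulated Padi4 KO and 0.804 and 0.845 in WT after R848. The 11 neutrophil markers tested summed to 123095 to 165758 CPM of the library total in each library, against 6.24 to 17.6 CPM for B cell markers and 5.09 to 42.1 CPM for T and NK cell markers. Erythroid markers summed to 22.4 to 115 CPM in the WT libraries and to 1063 to 1337 CPM in the Padi4 KO libraries, with 4 globin genes of the list at 0 throughout. Proliferation markers summed to 459 to 843 CPM in WT and 851 to 1189 CPM in Padi4 KO. In bulk RNA, fewer cells of a type and less RNA per cell cannot be told apart.

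The abundance of the family varied over 2 orders of magnitude among its members. Per kilobase of annotated exon, averaged over the libraries, the highest levels were those of Hnrnpa2b1 (166 TMM-scaled CPM per kb) and Srsf5 (163), followed by Hnrnpk (109), Srsf2 (93.5) and Hnrnpf (87.0). Hnrnpa2b1 encodes a reader of exonic silencers that also sorts RNAs in the cytoplasm, and Srsf5 encodes a member of the SR family. At the low end were Hnrnpa1 (1.22), Hnrnph3 (1.23), Hnrnpr (1.44) and Hnrnpa3 (3.14). The value of Hnrnpr rests on 21483 bases of annotated exon, where the gene with the next longest exons, Hnrnpu, has 7640. Without division by length, Hnrnpr was at 31.0 CPM on average, above Hnrnpa3 at 16.4 and Srsf4 at 13.5. Hnrnpa1 encodes one of the most abundant nuclear proteins of many cell types, but the table held only 0 to 5 counts for it in any library. In GENCODE, 46.4% of the 50-base windows of the longest coding Hnrnpa1 transcript also occurred in transcripts of 19 other genes, and the line for reads with several alignments was 0 in all libraries, so what part multiply mapped reads had in this low count was not tested. The same share was 51.9% for Hnrnpf, 34.5% for Hnrnpk, 31.5% for Srsf3, 28.2% for Hnrnpa3, 27.9% for Srsf5 and 18.2% for Hnrnph2, and the levels of these genes are uncertain to that extent. The other 28 genes, without Hnrnpa1 and Hnrnph3, reached a mean of 10 counts.

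**Figure D1:**
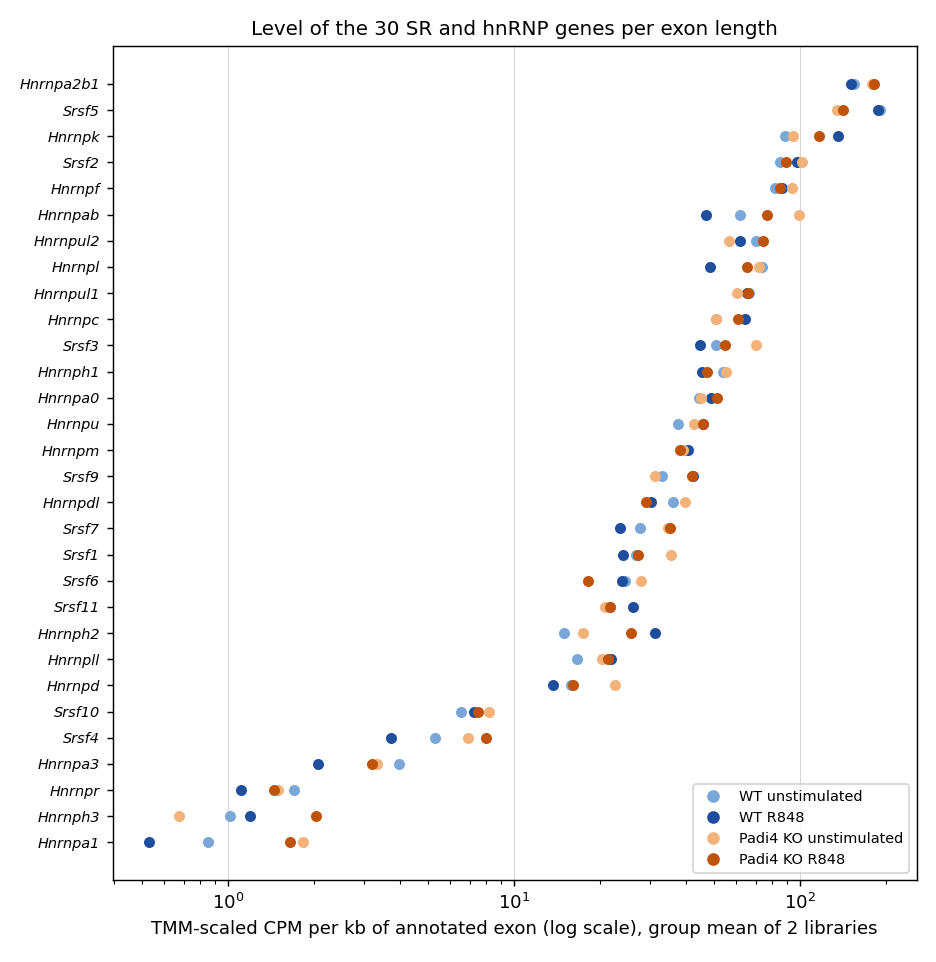
Level of each of the 30 genes in TMM-scaled CPM per kb of annotated exon on a log axis, with 1 point for the mean of the 2 libraries of each group. The order is set by the mean over all libraries, from Hnrnpa1 at 1.22 to Hnrnpa2b1 at 166, and the spread between groups within a gene is small beside the spread between genes.

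Summed over the 30 genes, the level was 4298 to 4709 TMM-scaled CPM in every library, with 1019 to 1214 for the Srsf genes and 3205 to 3690 for the Hnrnp genes. As a share of all counts on genes, without TMM factors, the sum was 4337 and 4530 CPM in unstimulated WT, 5797 and 5791 in unstimulated Padi4 KO, 3689 and 3789 in WT after R848 and 4499 and 4449 in Padi4 KO after R848. On both scales the sums over the 30 genes in Padi4 KO were above those in WT in both conditions, without overlap, by less on the TMM scale. The Srsf sum went the other way on the TMM scale after R848, at 1019 and 1074.4 in Padi4 KO against 1105 and 1074.7 in WT. For the 30 genes together, the direction after R848 depended on the scaling. As a share of all counts the sums were lower after R848 in both genotypes, whereas on the TMM scale they were higher in WT, at 4588 and 4486 against 4298 and 4399, and overlapped in Padi4 KO, at 4709 and 4638 against 4695 and 4633. The results below are changes relative to the other genes on the TMM scale.

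The response to R848 in WT neutrophils was mixed and mostly small. Hnrnph2, Hnrnpk, Hnrnpc and Hnrnpu rose, Hnrnpl and Hnrnpab fell, and none of the 10 Srsf genes passed the edgeR test. The smallest unadjusted p among the Srsf genes was 0.212, for Srsf2, so 0 of them were below an unadjusted 0.05, and DESeq2 called 0 of them. Scaled by library size alone, 4 were called lower, namely Srsf1 (-0.45 on the log2 scale), Srsf3 (-0.50), Srsf5 (-0.33) and Srsf7 (-0.53). With a false discovery rate (FDR) below 0.1 from the quasi-likelihood test of edgeR, 4 of 30 genes rose, against 13.5% of all genes tested, and 2 fell, against 16%. Together these were 20% of the family, against 29.5% of all genes tested. Of the 28 members with a mean of 10 counts or more, 6 (21.4%) passed, against 45.3% of the 6912 genes at that depth. With the further limit of 2-fold that the study used, Hnrnph2 alone remained, 1 of 30 genes, where 7.17% of all genes were higher and 10.8% were lower. The median log2 fold change of the family was -0.03, beside -0.17 for all genes tested. With relative log expression (RLE) factors the split was 4 higher and 1 lower, and with library size alone it was 2 higher and 14 lower, while the median of all genes tested moved to -0.09 and -0.47. Monocyte marker sums were 2091 to 3072 CPM of the library total before and 6344 to 6671 after R848 over both genotypes, and progenitor marker sums were 1038 to 1442 and 221 to 474. Of the 12 monocyte markers, 5 were higher and 5 lower after R848 in each genotype. Stromal and endothelial marker sums went from 229 and 271 to 36 and 41 CPM in WT and from 624 and 779 to 53 and 56 CPM in Padi4 KO, with 4 of 7 such genes lower in each. Their part in the changes was not tested.

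Hnrnph2, on the X chromosome (chrX:134601179-134607060, GRCm38, plus strand), encodes an hnRNP of the H/F group, which binds runs of guanine. Its level was 61.8 and 69.1 CPM in unstimulated WT and 159 and 113 CPM in WT after R848. In Padi4 KO it was 67.8 and 84.9 CPM without and 104 and 121 CPM with R848. In both genotypes the stimulated libraries were above all unstimulated ones. The log2 fold change was 1.04 ± 0.21 (SE) in WT (edgeR, adjusted p = 4.03e-06) and 0.53 ± 0.15 in Padi4 KO (adjusted p = 0.00284, and 0.309 without the second R848 library of Padi4 KO). With library size alone the Padi4 KO change was 0.15 (adjusted p = 0.473), and it did not pass with DESeq2 or thinned counts either. The difference between the genotypes, -0.52 ± 0.26, did not pass (adjusted p = 0.363). Without the first unstimulated WT library the WT change was 0.96, and without the first R848 library of WT it was 0.93, both just under 2-fold and both past the FDR limit. Its close relative Hnrnph1, which binds the same guanine-rich elements, was at 138, 133, 114 and 115 CPM in the same 4 WT libraries and did not pass in either genotype on the TMM scale. It was called lower with library size alone in WT (-0.54) and Padi4 KO (-0.58), and with RLE factors in Padi4 KO (-0.29).

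Hnrnpk encodes a KH-domain protein that binds cytosine-rich RNA and DNA, and it lies on chromosome 13 (chr13:58391142-58403343, minus strand). It was at 377 and 350 CPM in unstimulated WT and at 560 and 552 CPM after R848, and at 412 and 367 CPM against 500 and 460 CPM in Padi4 KO. The stimulated libraries were again higher, without overlap, in both genotypes. On the log2 scale the change was 0.61 ± 0.11 in WT (edgeR, adjusted p = 1.57e-07) and 0.31 ± 0.09 in Padi4 KO (adjusted p = 0.00276), and the difference of -0.30 ± 0.14 did not pass (adjusted p = 0.303). The WT rise passed under all 15 alternatives tried. The log2 fold change in Padi4 KO was -0.07 with library size alone, and it did not pass without the first or second R848 library or the second unstimulated library of Padi4 KO (adjusted p = 0.581, 0.115 and 0.185).

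Hnrnpl encodes a binder of CA repeats that is known for repressing variable exons of CD45 in lymphocytes. It stood at 186 and 209 CPM in unstimulated WT and at 135 and 126 CPM after R848, and both stimulated libraries were lower. In Padi4 KO the values were 171 and 216 CPM without and 176 and 173 CPM with R848, which overlap. The response was -0.60 ± 0.16 on the log2 scale in WT (edgeR, adjusted p = 0.00145) and -0.18 ± 0.12 in Padi4 KO (adjusted p = 0.274), with a difference of 0.42 ± 0.20 that did not pass (adjusted p = 0.311). In Padi4 KO it fell past the limit under other scalings, by 0.26 with RLE factors (edgeR, adjusted p = 0.0768) and by 0.55 with library size alone (adjusted p = 1.66e-05). Without the second R848 library of WT the WT change was -0.45 (adjusted p = 0.109). Hnrnpll, a paralog of Hnrnpl that also acts on CD45, had 44.8 and 58.7 CPM before and 69.3 and 67.3 CPM after R848 in WT, a log2 fold change of 0.41 ± 0.25 that did not pass.

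The other calls in WT were smaller. Hnrnpc, whose product packages nascent transcripts and binds uridine tracts, rose by a log2 fold change of 0.34 ± 0.14 (edgeR, adjusted p = 0.0526), but by 0.04 with library size alone (adjusted p = 0.914). Hnrnpu, encoding a scaffold-attachment factor of chromatin, rose by 0.30 ± 0.12 (adjusted p = 0.0596) on the TMM scale and was at -0.01 with library size alone. Hnrnpab fell by 0.38 on the log2 scale (SE 0.16, adjusted p = 0.0771), and this call was lost when either WT library of either condition was left out (adjusted p from 0.181 to 0.712). Hnrnpc and Hnrnpu lost theirs without the first unstimulated WT library (adjusted p = 0.271 and 0.383).

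**Figure D2:**
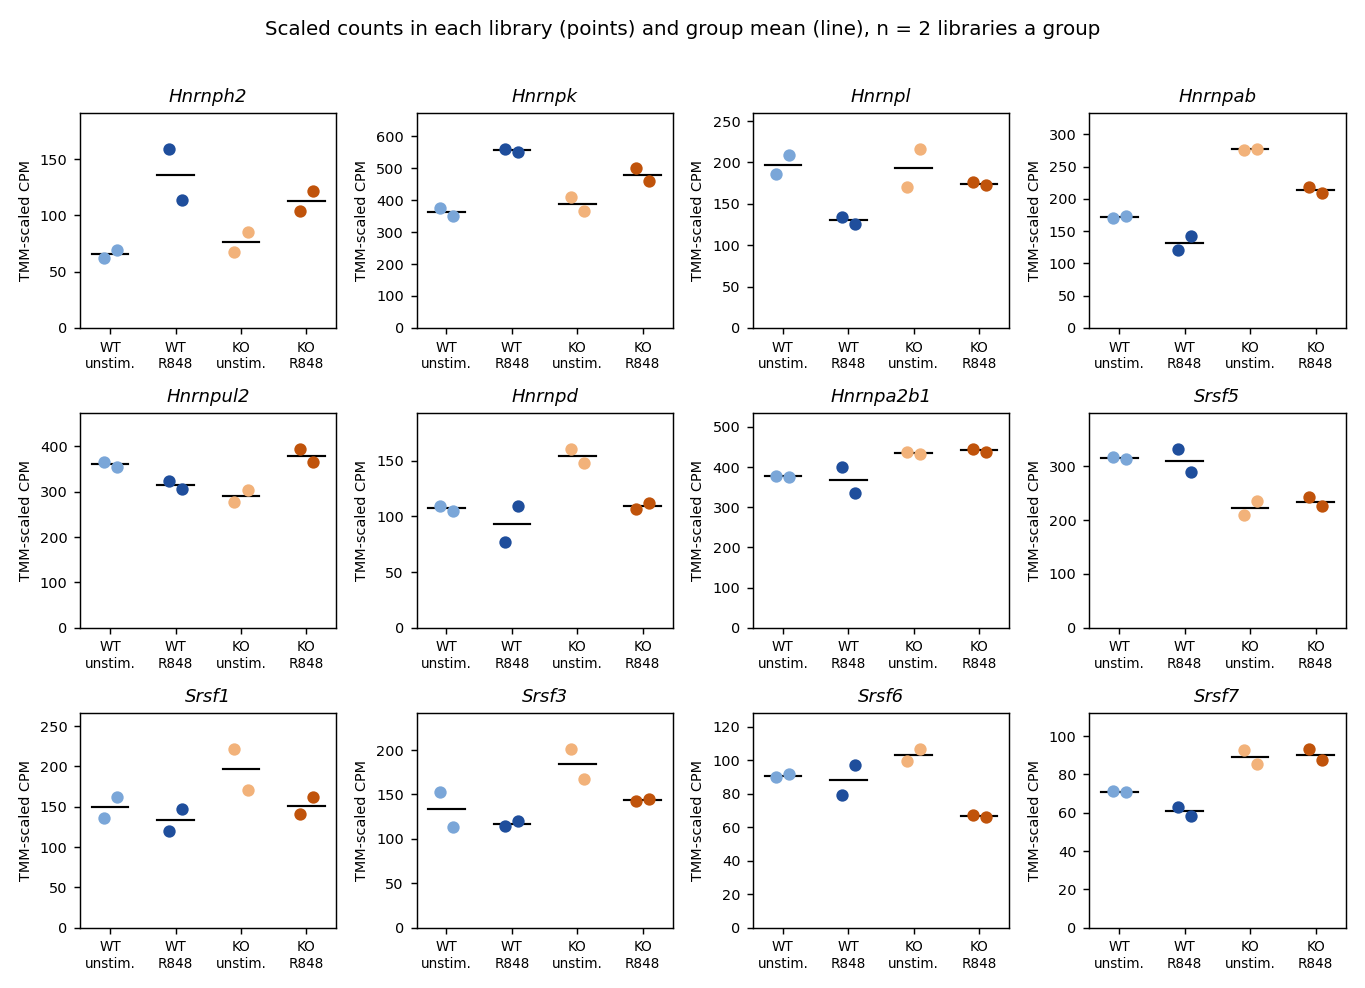
TMM-scaled CPM in each library (points) and the mean of the 2 libraries (line) for 12 members, in the order WT unstimulated, WT after R848, Padi4 KO unstimulated and Padi4 KO after R848, with every vertical axis starting at 0. Hnrnph2 and Hnrnpk are higher after R848 in both genotypes, Hnrnpab is higher and Srsf5 lower in all 4 Padi4 KO libraries than in the WT libraries of the same condition, and Srsf6 is lowest in Padi4 KO after R848 at 67.5 and 66.2 CPM.

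In Padi4 KO neutrophils, R848 was followed by a fall of 3 Srsf genes and 3 Hnrnp genes and by a rise of 4 Hnrnp genes. Srsf6, Srsf1, Srsf3, Hnrnpd, Hnrnpdl and Hnrnpab fell, and Hnrnph2, Hnrnpul2, Hnrnpk and Hnrnpc rose. At an FDR below 0.1 these were 4 of 30 higher, against 19.2% of all genes tested, and 6 of 30 lower, against 15.9%. Together they were 33.3% of the family, against 35.1% of all genes tested, and 10 of 28 (35.7%) against 50.9% among genes with a mean of 10 counts or more. None was past 2-fold, where 8.07% of all genes were higher and 8.84% lower (11 members had an unadjusted p below the usual 0.05, and DESeq2 called 3 members, none past 2-fold). With RLE factors the split was 3 higher and 10 lower, with library size alone 0 higher and 17 lower, and with DESeq2 0 higher and 3 lower. Hnrnpc, at 201 and 214 CPM before and 263 and 233 CPM after R848, had the weakest of these calls, 0.25 ± 0.11 on the log2 scale (edgeR, adjusted p = 0.0674). It passed under 4 of 15 alternatives, was at -0.13 with library size alone, and did not pass without any 1 of the 4 Padi4 KO libraries or the 2 R848 libraries of WT (log2 fold change 0.01 to 0.30, adjusted p from 0.133 to 0.975). The family's median was 0.00, beside -0.03 for all genes tested and 0.08 for genes with a mean of 10 counts or more. With RLE factors and library size alone the family's median was -0.08 and -0.38, beside -0.11 and -0.41 for all genes tested. Genes with a mean of 10 counts or more were then at -0.01 and -0.30.

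Srsf6, whose product is an SR protein with a pair of RNA recognition motifs, had the largest fall. It was at 99.5 and 107 CPM in unstimulated Padi4 KO and at 67.5 and 66.2 CPM after R848, and at 89.7 and 91.5 against 79.5 and 97.4 CPM in WT. The stimulated Padi4 KO libraries were the 2 lowest of all 8, whereas the WT groups overlapped. In log2 units it changed by -0.63 ± 0.16 in Padi4 KO (edgeR, adjusted p = 0.00052) and -0.02 ± 0.21 in WT (adjusted p = 0.999). The difference, -0.61 ± 0.27, did not pass (adjusted p = 0.242). Its fall in Padi4 KO passed under all 15 alternatives.

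Srsf1 encodes the SR protein also known as SF2/ASF, which acts in both constitutive and regulated splicing. Its levels were 222 and 171 CPM in unstimulated Padi4 KO and 141 and 162 CPM after R848, a log2 change of -0.35 ± 0.12 (edgeR, adjusted p = 0.0162). Srsf3, encoding the smallest SR protein, which also couples splicing to export, went from 201 and 168 CPM to 142 and 145 CPM, a log2 fold change of -0.34 ± 0.12 (adjusted p = 0.0224). For both genes the stimulated libraries were lower without overlap. Both calls were lost without the first unstimulated Padi4 KO library, the one with the highest value of each (adjusted p = 0.433 for Srsf1 and 0.304 for Srsf3).

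Hnrnpd encodes AUF1, a binder of AU-rich elements that is known for directing cytokine mRNAs to decay, and Hnrnpdl encodes its close relative. Hnrnpd was at 161 and 148 CPM in unstimulated Padi4 KO and at 107 and 112 CPM after R848, a log2 fold change of -0.49 ± 0.13 (edgeR, adjusted p = 0.00159) that passed under all 15 alternatives. In WT the Hnrnpd values were 110 and 105 CPM before and 77.4 and 110 CPM after R848, which overlap. Hnrnpdl was at 111 and 108 CPM before and 82.6 and 77.2 CPM after R848 in Padi4 KO, a log2 fold change of -0.45 ± 0.15 (adjusted p = 0.014) that passed under 14 of 15 alternatives, all but DESeq2 (adjusted p = 0.144).

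**Figure D3:**
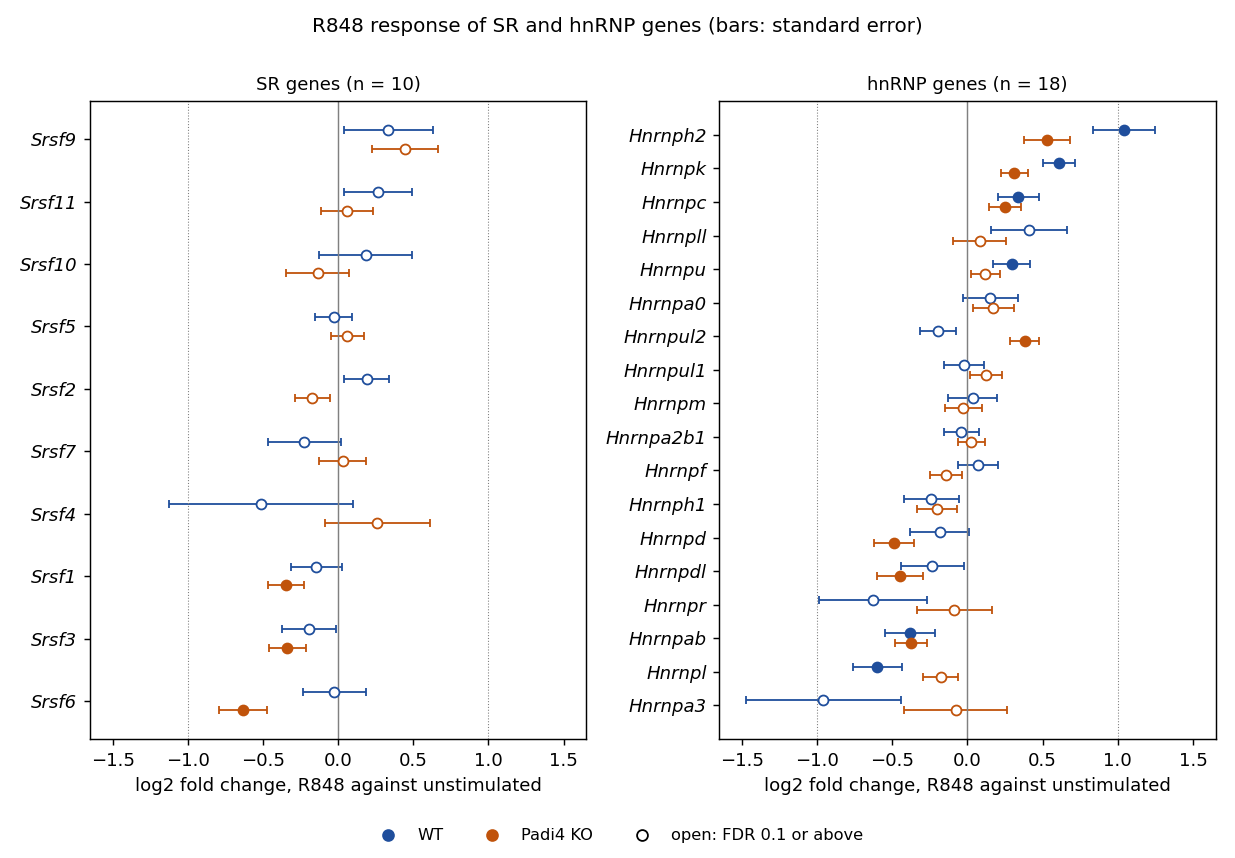
Log2 fold change of the R848 response for 28 members (mean count of 10 or more), Srsf genes on the left and Hnrnp genes on the right, in WT (blue) and Padi4 KO (orange). Bars are 1 standard error of the edgeR fit, filled points passed an FDR of 0.1, dotted lines mark 2-fold, and Hnrnph2 in WT at 1.04 is the one filled point beyond them.

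Between the genotypes the responses of the family could seldom be told apart. One member, Hnrnpul2, passed the direct test of the difference of response, where 3.45% of all genes tested were higher and 1.26% lower in Padi4 KO relative to WT, 4.71% in either direction and 8.03% among genes with a mean of 10 counts or more (5 members had an unadjusted p below 0.05, and DESeq2 called 0). The median difference over the family was -0.03, beside 0.19 for all genes tested. Erythroid markers also differed in response, higher in Padi4 KO relative to WT for 7 of 10 genes, with 6 lower after R848 in WT (sums of 103 to 115 CPM before and 22.4 to 50.8 after) and 5 higher in Padi4 KO (1063 to 1083 and 1278 to 1337). The difference was higher for 3 of 11 neutrophil markers and 1 of 8 proliferation markers, and lower for 2 of 9 progenitor and 1 of 12 monocyte markers, and the part of these cells in the responses of the splicing factors was not tested. Hnrnpul2 encodes a relative of hnRNP U that acts at DNA breaks. It stood at 365 and 356 CPM in unstimulated WT and at 324 and 306 CPM after R848, but at 277 and 303 CPM in unstimulated Padi4 KO and 394 and 365 CPM after R848. It was thus lower in both stimulated WT libraries and higher in both stimulated Padi4 KO libraries than in their unstimulated counterparts. Its log2 response was -0.20 ± 0.12 in WT (edgeR, adjusted p = 0.253) and 0.38 ± 0.10 in Padi4 KO (adjusted p = 0.000524, and 0.333 without the first R848 library of Padi4 KO), and the difference was 0.58 ± 0.15 (adjusted p = 0.0104). With library size alone the responses were -0.50 in WT (adjusted p = 0.000245) and 0.0023 in Padi4 KO (adjusted p = 0.994), so that WT passed and Padi4 KO did not, and the difference was 0.50 (adjusted p = 0.0505). When any 1 of the 4 R848 libraries was left out, the difference was 0.28 to 0.41 and did not pass (adjusted p from 0.333 to 0.643). It was 0.42 with RLE factors (adjusted p = 0.148), which called Hnrnpk in its place as the lower response in Padi4 KO.

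Before stimulation, Hnrnpab, Hnrnpd, Srsf3 and Srsf1 were higher in Padi4 KO than in WT, and Srsf5 and Hnrnpul2 were lower. The 4 higher genes of 30 compare with 9.55% of all genes tested and the 2 lower ones with 14.4%. The total of 20% compares with 23.9% of all genes tested, and 6 of 28 (21.4%) with 36.7% of the genes that had a mean of 10 counts or more. The median log2 fold change was 0.17 over the family (0.27 over the Srsf genes and 0.06 over the Hnrnp genes), beside -0.03 over all genes tested. With library size alone 16 members were higher and 0 lower, with RLE factors 5 and 2, and with DESeq2 1 and 1. After R848, 5 of 30 members were higher in Padi4 KO, against 9.46% of all genes tested, namely Hnrnpab, Srsf7, Hnrnpl, Hnrnpul2 and Hnrnpa2b1, and 1, Srsf5, was lower, against 7.81%. In either direction the share was again 20% of 30 and 21.4% of 28, against 17.3% and 26.3% of the genes. There the split was 9 and 0 with library size alone, 1 and 3 with RLE factors and 1 and 1 with DESeq2, and the family's median was 0.04, beside 0.08 for all genes tested. Among genes with a mean of 10 counts or more, the medians were 0.03 for the members and -0.002 for all such genes. Erythroid markers were higher in Padi4 KO for 9 of 10 genes tested before and 10 of 10 after R848, proliferation markers for 4 and 6 of 8, monocyte markers for 6 and 4 of 12 (lower for 1 and 2) and stromal and endothelial markers for 3 and 1 of 7. Neutrophil markers were lower for 10 and 9 of 11 and progenitor markers for 7 of 9 in both conditions. The part of other cells in the differences of the splicing factors was not tested.

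Hnrnpab encodes a relative of the AU-rich element binder AUF1, also known as a binding partner of the editing enzyme APOBEC1. It lies on chromosome 11 (chr11:51600100-51606847, minus strand). Its level was 170 and 173 CPM in unstimulated WT and 276 and 277 CPM in unstimulated Padi4 KO, and 120 and 142 CPM in WT against 219 and 209 CPM in Padi4 KO after R848. All 4 Padi4 KO libraries were above all 4 WT libraries. Padi4 KO exceeded WT by 0.69 ± 0.13 in log2 units before (edgeR, adjusted p = 1.04e-06) and 0.70 ± 0.15 after R848 (adjusted p = 3.75e-05), and both passed under all 15 alternatives, with ranges of 0.68 to 0.98 and 0.45 to 0.91. Its R848 response was -0.38 ± 0.16 in WT and -0.37 ± 0.11 in Padi4 KO, with a difference of 0.01 ± 0.19. Of its transcript windows, 28.8% are shared with the overlapping antisense gene Phykpl, and a library kit that does not mark strand cannot tell reads of the 2 genes apart.

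Srsf5 lies on chromosome 12 (chr12:80945504-80950507, plus strand). It was at 317 and 314 CPM in unstimulated WT and 210 and 235 CPM in unstimulated Padi4 KO, and at 332 and 289 CPM in WT against 243 and 226 CPM in Padi4 KO after R848. Every WT library was above every Padi4 KO library, and the R848 response was -0.03 ± 0.12 in WT and 0.06 ± 0.11 in Padi4 KO, neither past the test, but -0.33 and -0.32 and past it with library size alone (edgeR, adjusted p = 0.0271 and 0.014). Between the genotypes the log2 fold change was -0.49 ± 0.11 before (edgeR, adjusted p = 0.000246) and -0.40 ± 0.12 after R848 (adjusted p = 0.00816). The calls held under 14 of 15 alternatives each, and with library size alone the differences were -0.20 and -0.18 and did not pass.

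On the TMM scale the remaining genotype differences passed in 1 condition alone, except that of Hnrnpul2, which passed in both with opposite signs. Hnrnpul2 was also the one member whose difference changed between the conditions in the direct test. With library size alone, further members passed in both conditions with the same sign. Hnrnpd was then higher in Padi4 KO by 0.80 before and 0.42 after R848 (edgeR, adjusted p = 8.57e-06 and 0.0996). Hnrnpa2b1 was higher by 0.49 in both (edgeR, adjusted p = 3.45e-05 and 9.18e-05). On the TMM scale Hnrnpd was higher in unstimulated Padi4 KO by 0.51 ± 0.16 (edgeR, adjusted p = 0.00864), Srsf3 by 0.43 ± 0.14 (adjusted p = 0.0164) and Srsf1 by 0.37 ± 0.14 (adjusted p = 0.0392). After R848 the same differences were 0.21 ± 0.18, 0.29 ± 0.16 and 0.17 ± 0.15 and did not pass, although both Padi4 KO libraries were above both WT libraries for Srsf3. Srsf1 and Srsf3 were at 136 and 162 and at 153 and 114 CPM in unstimulated WT, and each lost its call without the first unstimulated Padi4 KO library (adjusted p = 0.437 and 0.181). Srsf1 also lost it without the first unstimulated WT library (adjusted p = 0.445) and Srsf3 without the second (adjusted p = 0.430). Srsf7, encoding an SR protein with a zinc knuckle, was at 71.1 and 70.8 CPM in WT and 92.7 and 85.6 CPM in Padi4 KO before R848, and at 63.2 and 58.4 CPM against 93.3 and 87.3 CPM after it. Both pairs did not overlap, and the log2 fold change was 0.32 ± 0.19 before (adjusted p = 0.270) and 0.57 ± 0.21 after R848 (adjusted p = 0.045).

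After R848, Hnrnpl was higher in Padi4 KO by 0.43 ± 0.15 (edgeR, adjusted p = 0.0388) and Hnrnpa2b1, at 401 and 335 CPM in WT and 445 and 438 CPM in Padi4 KO, by 0.27 ± 0.10 (adjusted p = 0.0648). Hnrnpa2b1 was also without overlap before R848, at 379 and 375 CPM in WT and 436 and 432 CPM in Padi4 KO, where 0.20 ± 0.10 did not pass (adjusted p = 0.154). Hnrnpul2 was lower in Padi4 KO before R848, at -0.30 ± 0.11 (adjusted p = 0.0274, and 0.180 to 0.328 without 1 of 6 libraries, all but the second of each unstimulated group, and -0.02 with library size alone), and higher after it, at 0.27 ± 0.11 (adjusted p = 0.0837). The calls after R848 of Srsf7, Hnrnpl, Hnrnpa2b1 and Hnrnpul2 were each lost when any 1 of the 4 R848 libraries was left out, with adjusted p from 0.160 to 0.388, 0.247 to 0.425, 0.188 to 0.839 and 0.324 to 0.723. All 4 calls were also lost with RLE factors, DESeq2 and thinned counts. With a library left out the log2 fold changes were 0.41 to 0.52 for Srsf7, 0.29 to 0.34 for Hnrnpl, 0.06 to 0.26 for Hnrnpa2b1 and 0.10 to 0.23 for Hnrnpul2.

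**Figure D4:**
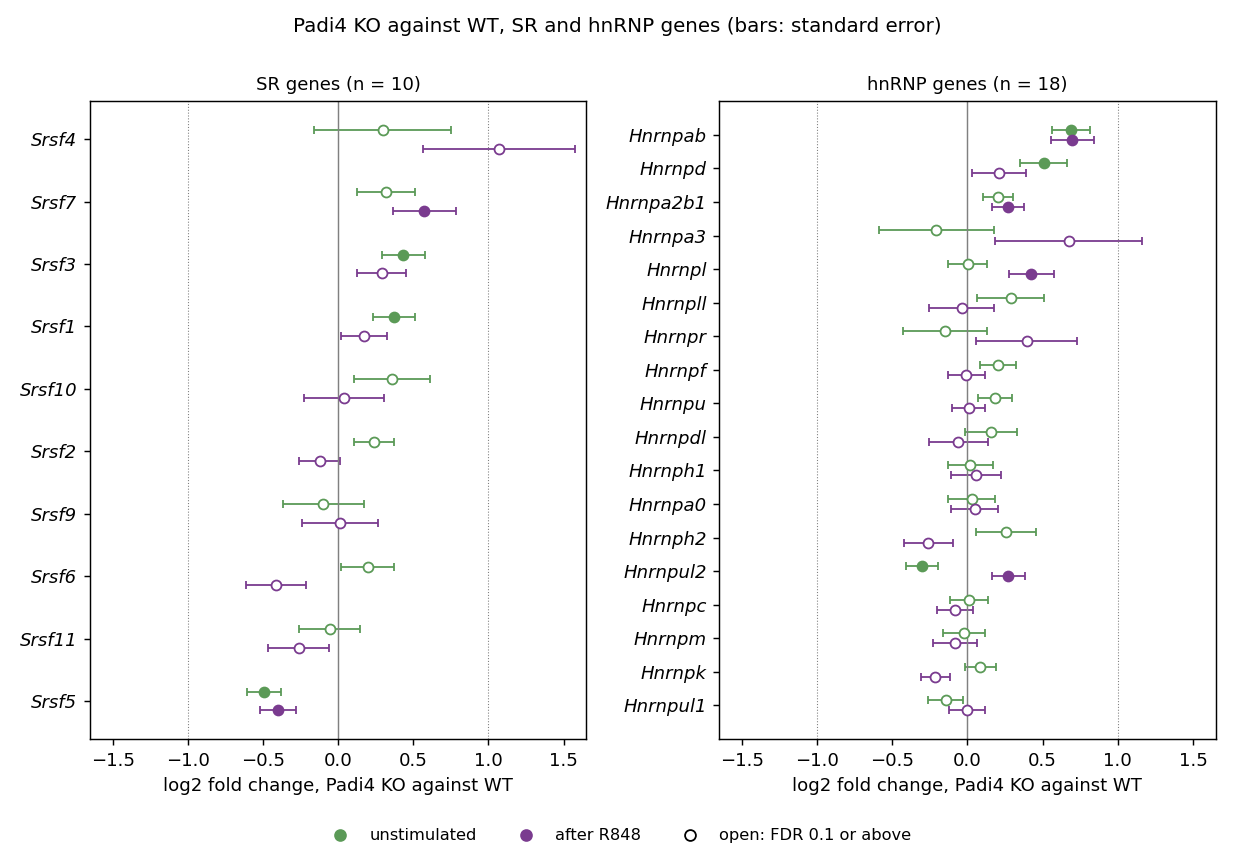
Log2 fold change of Padi4 KO against WT for 28 members (mean count of 10 or more), without stimulation (green) and after R848 (purple), with bars of 1 standard error of the edgeR fit and filled points past an FDR of 0.1. Hnrnpab at 0.69 and 0.70 and Srsf5 at -0.49 and -0.40 are filled in both conditions with the same sign, and Hnrnpul2 is filled with opposite signs.

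Ratios of counts between 2 genes of the same library do not depend on the scaling. The ratio of Hnrnph2 to Hnrnph1 was 0.449 and 0.520 in unstimulated WT and 1.39 and 0.985 after R848, and 0.469 and 0.643 against 0.785 and 1.15 in Padi4 KO. Relative to its paralog, Hnrnph2 was thus higher in every stimulated library. The ratio of Hnrnpk to Hnrnpl was 2.03 and 1.68 in unstimulated WT and 4.17 and 4.39 after R848, and 2.41 and 1.70 against 2.84 and 2.66 in Padi4 KO. The stimulated WT libraries stood above all others. Hnrnpk was called higher and Hnrnpl lower after R848 in WT, so the rise of their ratio there follows from the choice of pair.

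Between the genotypes, the ratio of Hnrnpab to Hnrnpa2b1 was 0.449 and 0.461 in unstimulated WT and 0.632 and 0.642 in unstimulated Padi4 KO, and 0.300 and 0.423 against 0.491 and 0.476 after R848. It was higher in Padi4 KO in both conditions, without overlap. The ratio of Srsf5 to Srsf6 was 3.53 and 3.43 in unstimulated WT and 2.11 and 2.20 in unstimulated Padi4 KO, but 4.18 and 2.96 against 3.59 and 3.42 after R848, where the groups overlapped. Srsf1 relative to Srsf9, a related SR gene, was at 3.52 and 4.27 in unstimulated WT, 5.77 and 5.02 in unstimulated Padi4 KO, 2.03 and 3.77 in WT after R848 and 3.25 and 2.98 in Padi4 KO after R848, so that the genotypes overlapped after R848. The pairs were chosen after the values were seen, and no test was made on these ratios.

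**Figure D5:**
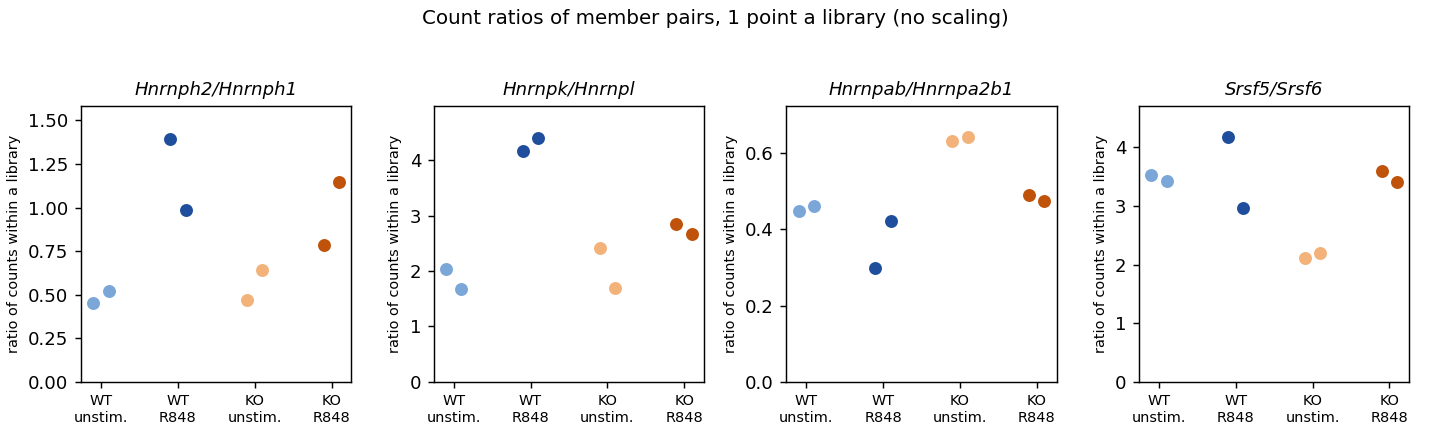
Ratio of counts of 4 pairs of members in each library, with 1 point a library and all axes starting at 0. Hnrnph2 to Hnrnph1 and Hnrnpk to Hnrnpl are higher after R848 in both genotypes, and Hnrnpab to Hnrnpa2b1 is higher in Padi4 KO than in WT in both conditions.

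The promoters of 5 members are shown because Hnrnph2, Hnrnpk, Hnrnpc and Hnrnpab passed the test after R848 in both genotypes with the same sign, and Hnrnpab and Srsf5 did so between the genotypes in both conditions. The sequences are those of RefSeq on GRCm38.p6 and run 5′ to 3′ on the strand of the gene, from 250 bases before to 50 bases after the annotated start. Capitals mark GGGCGG (the GC box, bound by SP factors) and CCAAT (bound by NF-Y) on either strand.
Hnrnph2 (chrX:134600929-134601228, plus strand): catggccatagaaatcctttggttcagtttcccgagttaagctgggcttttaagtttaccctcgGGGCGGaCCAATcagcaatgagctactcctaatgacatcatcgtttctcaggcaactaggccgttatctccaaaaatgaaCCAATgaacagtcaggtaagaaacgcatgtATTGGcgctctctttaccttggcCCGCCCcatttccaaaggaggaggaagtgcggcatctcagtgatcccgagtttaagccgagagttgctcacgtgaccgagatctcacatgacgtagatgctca
Hnrnpk (chr13:58402068-58402367, minus strand): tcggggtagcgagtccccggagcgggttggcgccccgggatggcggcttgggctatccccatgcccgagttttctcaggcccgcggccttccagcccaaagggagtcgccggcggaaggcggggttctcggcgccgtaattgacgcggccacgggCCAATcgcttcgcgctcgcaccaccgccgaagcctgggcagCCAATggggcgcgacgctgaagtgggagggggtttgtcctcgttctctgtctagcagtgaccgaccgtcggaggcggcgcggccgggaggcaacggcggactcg
Hnrnpc (chr14:52103972-52104271, minus strand): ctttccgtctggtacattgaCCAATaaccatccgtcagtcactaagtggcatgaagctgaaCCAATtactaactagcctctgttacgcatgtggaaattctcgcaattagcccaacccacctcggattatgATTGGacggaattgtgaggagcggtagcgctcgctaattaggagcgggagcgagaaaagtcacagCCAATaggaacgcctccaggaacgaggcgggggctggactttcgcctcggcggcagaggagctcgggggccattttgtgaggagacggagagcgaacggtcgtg
Hnrnpab (chr11:51606832-51607131, minus strand): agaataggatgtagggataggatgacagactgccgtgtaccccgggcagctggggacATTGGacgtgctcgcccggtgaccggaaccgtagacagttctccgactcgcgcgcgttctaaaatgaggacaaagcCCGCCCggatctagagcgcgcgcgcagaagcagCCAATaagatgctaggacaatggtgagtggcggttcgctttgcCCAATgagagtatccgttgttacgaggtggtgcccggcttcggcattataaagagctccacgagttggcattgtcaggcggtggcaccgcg
Srsf5 (chr12:80945249-80945548, plus strand): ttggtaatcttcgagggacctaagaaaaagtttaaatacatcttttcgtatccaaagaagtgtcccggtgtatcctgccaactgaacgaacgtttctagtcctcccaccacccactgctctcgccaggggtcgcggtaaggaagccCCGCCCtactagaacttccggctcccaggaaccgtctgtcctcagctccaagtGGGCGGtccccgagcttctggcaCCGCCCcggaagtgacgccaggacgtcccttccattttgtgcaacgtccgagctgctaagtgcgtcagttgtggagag

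The Hnrnph2 window held 2 GC boxes and 3 CCAAT boxes, that of Hnrnpk 0 and 2, that of Hnrnpc 0 and 4, that of Hnrnpab 1 and 3, and that of Srsf5 3 and 0. Entries were found for 28 of the 30 members, all but Hnrnpll and Hnrnpul2, and gave 40 promoter windows. GGGCGG occurred on either strand in 33 of these 40 windows (82.5%), against 35.7% of all 32851 promoters of the same length. CCAAT occurred in 52.5% against 37.4%, TGACG, the core of the element bound by CREB and ATF factors, in 57.5% against 20.8%, and CCGGAAG, an ETS motif, in 25.0% against 8.9%. TATAAA occurred in 10.0% against 13.6%. The windows were rich in G and C, with a median of 67.8% against 52.7% for all promoters, and a ratio of observed to expected CpG of 0.985 against 0.384. The presence of a motif is a description and does not show that a factor binds there.

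The counts are sums over all isoforms of a gene. In GENCODE, a transcript marked for nonsense-mediated decay is annotated for 9 of the 10 Srsf genes (90%) and 10 of the 20 Hnrnp genes (50%), beside 29.6% of the 11313 protein-coding genes tested that were found in the annotation. A transcript with a retained intron is annotated for 80% and 70%, beside 60.0%. Whether productive and unproductive isoforms of Srsf6 or Hnrnpd shifted cannot be read from these counts. Srsf4, at 6.11 to 20.2 CPM, shares 65.3% of its transcript windows with an overlapping antisense gene and Srsf2 35.2%, so their values are uncertain.

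The kinases that act on SR proteins and the wider splicing machinery were examined beside the family. Of 10 kinase and importer genes tested, 2 rose and 1 fell after R848 in WT, and 3 rose and 1 fell in Padi4 KO. The shares of all genes tested were 13.5% higher and 16% lower in WT and 19.2% and 15.9% in Padi4 KO. Clk3 and Clk1, encoding CLK kinases that phosphorylate SR proteins in the nucleus, rose in both genotypes. Clk3 rose by 0.84 ± 0.19 in WT and 0.87 ± 0.15 in Padi4 KO (edgeR, adjusted p = 9.12e-05 and 1.2e-07), and Clk1 by 0.67 ± 0.17 and 0.47 ± 0.14 (adjusted p = 0.00048 and 0.00438). The WT rise of Clk1 passed under all 15 alternatives. In Padi4 KO it was 0.10 with library size alone (adjusted p = 0.648) and did not pass with DESeq2, with thinned counts or without the first or second R848 library (adjusted p = 0.159 and 0.174). Srpk2, encoding a cytoplasmic SR kinase and named here after its values were seen, was at 199 and 242 CPM (129 and 140 counts) in unstimulated WT, 126 and 129 CPM in WT after R848, 109 and 120 CPM in unstimulated Padi4 KO and 126 and 119 CPM in Padi4 KO after R848. The unstimulated WT libraries were above all others. Before R848 it was lower in Padi4 KO, at -0.93 ± 0.14 in log2 units (edgeR, adjusted p = 1.14e-09), under all 15 alternatives. In WT it fell (log2 change -0.78 ± 0.16, edgeR, adjusted p = 1.04e-05), and it was at 0.09 ± 0.14 in Padi4 KO, a difference of 0.87 ± 0.21 (adjusted p = 0.00361) that was lost with DESeq2, with thinned counts and when any 1 of the 4 R848 libraries was left out.

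Among 47 core spliceosome genes, 3 rose and 5 fell in WT and 8 rose and 11 fell in Padi4 KO after R848, beside the 13.5% and 16% of all genes in WT and the 19.2% and 15.9% in Padi4 KO. Prpf19, encoding the ubiquitin ligase of the PRP19 complex, had log2 fold changes of -0.92 ± 0.38 and -1.19 ± 0.19, and Ddx46, encoding a helicase of the U2 particle, of -0.74 ± 0.25 and -1.15 ± 0.19, all past the FDR limit. The Padi4 KO calls of both held under all 15 alternatives. In WT, Prpf19 did not pass without the first unstimulated WT library or without any 1 of the 4 R848 libraries (adjusted p from 0.110 to 0.349), and Ddx46 was at -0.52 and -0.45 without the second unstimulated or second R848 library of WT (adjusted p = 0.273 and 0.383). Sf3b6, encoding the branch-point subunit p14, rose by 0.73 ± 0.26 and 0.73 ± 0.19, but by 0.42 and 0.36 with library size alone, which did not pass, and lost its call in WT without the first unstimulated or second R848 library (adjusted p = 0.203 and 0.205) and in Padi4 KO without the first R848 library (adjusted p = 0.188). Between the genotypes 14 core genes were higher and 4 lower in unstimulated Padi4 KO, and 8 were higher and 1 lower after R848, where 9.55% and 14.4% and then 9.46% and 7.81% of all genes were called. Prpf19 was higher in Padi4 KO by 1.18 ± 0.23 before R848 (edgeR, adjusted p = 7.17e-06) and by 0.91 ± 0.34 after it (adjusted p = 0.0572). The latter did not pass without any 1 of the 4 R848 libraries (adjusted p from 0.173 to 0.347) and was 0.10 with thinned counts.

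Of 43 other splicing regulators, 8 rose and 8 fell in WT and 12 rose and 10 fell in Padi4 KO after R848, and 4 were higher and 8 lower in unstimulated Padi4 KO than in WT. Of all genes tested, 13.5% rose and 16% fell in WT, 19.2% and 15.9% did so in Padi4 KO, and 9.55% were higher and 14.4% lower in unstimulated Padi4 KO. Mbnl1, encoding the muscleblind protein that reads CUG repeats, fell in both genotypes, with log2 fold changes of -1.97 ± 0.22 and -1.30 ± 0.15 (edgeR, adjusted p = 1.25e-17 and 6.33e-16). Celf2, encoding an antagonist of muscleblind proteins on many exons, fell by 0.94 and 0.59 on the log2 scale. Of 16 genes of the exon junction complex and nonsense-mediated decay, 3 rose and 3 fell in WT and 2 rose and 1 fell in Padi4 KO, to be read against the same shares. Smg9, encoding a cofactor of the SMG1 kinase, fell in both, with log2 fold changes of -1.78 ± 0.28 and -1.29 ± 0.22. Smg1 itself rose by 0.47 ± 0.14 and 0.33 ± 0.12, but with library size alone it was at 0.16 and -0.05 and did not pass. Its WT call was lost without the first unstimulated WT library (adjusted p = 0.122), and its Padi4 KO call without the second unstimulated Padi4 KO library or any 1 of the 4 R848 libraries (adjusted p from 0.204 to 0.548).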

How the data were processed

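RNA of magnetically isolated bone marrow neutrophils was sequenced with paired ends on a MiSeq, in 4 groups of 2 libraries taken from the labels. The authors checked reads with FastQC 0.11.7, trimmed them with cutadapt 1.16, mapped them to mm10 with STAR 2.5.3a and counted them on genes with HTSeq 0.6.1p1. The deposited values are raw counts for 24421 gene symbols, without normalization. The annotation and strand setting are not given in the sources used here, and the library kit does not mark strand. The 5 summary lines of HTSeq were left out, and 87.0% to 89.5% of the counted reads in each library lay on genes.

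All 12254 genes with at least 1 count in at least 2 libraries entered 1 model (edgeR 4.0.16 with limma 3.58.1 under R 4.3.3), using TMM factors, 1 mean for each group and the robust quasi-likelihood test. Benjamini-Hochberg adjustment ran over all of these genes. A call needed an FDR below 0.1; the additional limit of 2-fold for responses follows the study. The SE of a log2 fold change is its size over the square root of its F statistic. CPM values carry the TMM factors unless the library total is named. DESeq2 1.42.0 (the study's tool), RLE factors, library size alone, other filters, thinned counts, an FDR of 0.05, a replicate block and leaving out each library were the alternatives. The fit was tested on simulated data. Deviations of libraries with the same number correlated at -0.020 to 0.020 over 6912 genes, so the numbers do not pair the libraries.

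Every member could be named. Values in every library were required for members past both limits in a response, past the FDR in the difference of response, or among the 6 largest called differences between genotypes, with at least 10 counts on average. Of the other splicing genes, those with the largest mean response past the FDR were named, except 1 that is not reported here. The members, the lists and the tests were chosen with earlier results of these data known. The count ratios, motifs and shares of transcript sequence were chosen after the values were seen. Gene positions and transcripts are those of GENCODE on GRCm38. Protein levels and splicing of single exons were not analysed here.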

Additional observations from a re-analysis of the deposited data

Results flagged for a closer look

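The R848 response of Hnrnpul2 stood out because it differed between the genotypes in a direct test. The log2 fold change was 0.58 higher in Padi4 KO than in WT (edgeR quasi-likelihood test, adjusted p = 0.0104). It did not pass under 7 of 15 alternatives, namely DESeq2, RLE factors, thinned counts and leaving out any 1 of the 4 R848 libraries, where it was 0.28 to 0.42. Hnrnpul2 was higher in both R848 libraries of Padi4 KO than in the unstimulated ones, and lower in both of WT, where the change did not pass. Relative to its paralog Hnrnpul1, its counts were at 1.53 and 1.39 in Padi4 KO after R848, both above the higher of the unstimulated Padi4 KO libraries at 1.27, whereas the ratios of the WT groups overlapped.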

How the results depend on the processing

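The depth of 562446 to 1177970 counts on genes limits all results, and the choice of scaling moved most counts of calls. After R848 in WT, 1 member was higher past 2-fold; the count was 0 with library size alone and with edgeR's filterByExpr, 4 without the 2-fold limit, and 0 to 1 with a library left out (0 without the first unstimulated or the first R848 library of WT). The count of lower members in WT was 0; it was 1 with library size alone, 2 without the 2-fold limit and 0 to 1 with a library left out (1, Hnrnpa3, without the first R848 library of WT). In Padi4 KO, 0 were higher and 4 without the 2-fold limit, and 0 were lower, with 1 (Srsf6) for library size alone and for thinned counts and 6 without the 2-fold limit; leaving out a library left both at 0. Of the differences of response, 1 passed, 0 with DESeq2, 3 with thinned counts and 1 to 3 with a library left out (3 without either R848 library of WT). Of the members, 6 differed between unstimulated Padi4 KO and WT, 2 with DESeq2, 16 with library size alone and 3 to 11 with a library left out (3 without the first unstimulated Padi4 KO library, 11 without either R848 library of WT, 10 without the first R848 library of Padi4 KO). After R848, 6 differed, 2 with DESeq2 and 2 to 6 with a library left out (3 and 2 without the first and second R848 library of Padi4 KO). The cause was not tested. With the replicate number as a block the counts stayed at 1, 0, 0, 0, 1, 6 and 6 in this order, and the block changed no call. With library size alone, the log2 fold change turned to -0.0097 for Hnrnpu and -0.012 for Ddx17 in WT and to -0.13 for Hnrnpc, -0.065 for Hnrnpk and -0.052 for Smg1 in Padi4 KO, and with thinned counts it was -0.084 for Hnrnpc. Of 435 alternative values for the 29 called results of single members, 338 stayed on the same side of the FDR limit with the same direction, 93 no longer passed and 4 reversed.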

Other observations

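Several members held a steady level over all 4 groups on the TMM scale. Hnrnpm, encoding an hnRNP that binds GU-rich RNA, lay between 148 and 167 CPM in the 8 libraries. Of its transcript windows, 28.8% are shared with the overlapping gene March2, so its level is uncertain to that extent. Hnrnpul1, a relative of Hnrnpul2, lay between 232 and 285 CPM, and Hnrnpa0, whose product binds AU-rich elements and is a target of the kinase MK2, between 114 and 149 CPM. On the TMM scale none of these genes passed an FDR of 0.1 in any of the contrasts of the edgeR test. With library size alone Hnrnpm fell after R848 in Padi4 KO (log2 fold change -0.40, adjusted p = 0.00531) and Hnrnpul1 in WT (-0.33, adjusted p = 0.0484) and Padi4 KO (-0.26, adjusted p = 0.047). Srsf9, encoding a short relative of Srsf1, was at 38.7 and 38 CPM in unstimulated WT and 59.1 and 39 CPM after R848, and at 38.4 and 34.1 against 43.5 and 54.2 CPM in Padi4 KO. Its log2 fold changes of 0.33 ± 0.30 and 0.44 ± 0.22 did not pass, although every stimulated library was above the unstimulated libraries of its genotype.

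Srsf4 was at 17.0 and 6.91 CPM in unstimulated WT and at 6.11 and 10.6 CPM in WT after R848, against 18.1, 13.1, 16.0 and 20.2 CPM in the Padi4 KO libraries. The difference after R848, 1.07 ± 0.51, had an unadjusted p of 0.0348 and did not pass the adjustment in the edgeR test (adjusted p = 0.165). Eftud2 and Sf3b3, encoding subunits of the U5 and U2 particles and chosen after their values were seen, were higher in Padi4 KO before R848 (log2 fold change 1.11 ± 0.23 and 0.83 ± 0.19) and after it (1.11 ± 0.28 and 0.89 ± 0.24), whereas Sf3b1, encoding the subunit that holds the branch point, was lower, at -0.37 ± 0.10 and -0.35 ± 0.10. All 6 differences had an adjusted p below 0.1 in the edgeR test. With library size alone Sf3b1 was at -0.08 and -0.13 and did not pass (adjusted p = 0.669 and 0.471), and before R848 it did not pass without the second unstimulated WT library or either R848 library of Padi4 KO (adjusted p from 0.105 to 0.153). Sf3b3 after R848 was at 0.40 with thinned counts (adjusted p = 0.509) and 0.66 without the first R848 library of WT (adjusted p = 0.147).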
